A study of Mus musculus with 2 samples.

Results

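A set of genes that supply, remove or import the phosphate of bone mineral were followed in 2 mouse femur sections, out of 19465 genes counted. The 7 members, chosen by their symbols with earlier results of these data known, were *Phospho1*, *Smpd3*, *Alpl*, *Enpp1*, *Phex*, *Slc20a1* and *Slc20a2*. Both mice were female bone cell reporter (BCR) mice, which carry fluorescent reporters at the *Ibsp* and *Acp5* loci, and both had a femoral osteotomy held by an external fixator at 12 weeks of age. After bridging of the defect at 3 weeks, the Loaded mouse received cyclic mechanical loading 3 times per week until week 5 and the Control mouse received sham loading, and both were killed at 17 weeks of age. With 1 section per group there was no replicate of a condition, so no test was made and a difference between the sections cannot be told apart from a difference between these mice or between these cuts. Gene expression was counted as unique molecular identifiers (UMIs), each one captured molecule, in spots that each cover several cells. A level is given as UMIs of a gene per 10000 UMIs of all genes, and every interval is a 95% interval for counting error only. Levels were compared between places and not between genes, because the probes differ from gene to gene. In a spot, fewer cells of a type and less RNA per cell cannot be told apart.

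Mineral forms first in matrix vesicles that bud from osteoblasts, and then spreads along collagen. Inside the vesicle SMPD3 cleaves sphingomyelin to phosphocholine and PHOSPHO1 frees phosphate from phosphocholine. On the outside tissue-nonspecific alkaline phosphatase, the product of *Alpl*, breaks down inorganic pyrophosphate, a strong inhibitor of crystal growth, whereas ENPP1 makes pyrophosphate from nucleotides. PHEX is an endopeptidase of osteoblasts and osteocytes whose loss raises FGF23 and wastes phosphate through the kidney. *Slc20a1* and *Slc20a2* encode the sodium-dependent phosphate importers PiT-1 and PiT-2, which most cell types carry.

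On the GRCm38 assembly *Alpl* lies on chromosome 4 (137741733 to 137796384, minus strand), *Phospho1* on 11 (95824499 to 95832140, plus) and *Smpd3* on 8 (106252548 to 106337988, minus). *Enpp1* lies on chromosome 10 (24637914 to 24712159, minus), *Phex* on X (157162075 to 157415312, minus), *Slc20a1* on 2 (129198764 to 129211616, plus) and *Slc20a2* on 8 (22476788 to 22569612, plus). RefSeq promoter windows (GRCm38.p6, 250 bases before a start to 50 after it) were matched for 5 of the 7 members. Those of *Alpl*, *Phospho1* and *Phex* are shown because these genes carried the largest differences with UMIs in both sections. Capitals mark each GC box (GGGCGG or its reverse complement CCGCCC), counted without overlap.
Alpl, upstream start, chr4:137796335-137796634, minus strand: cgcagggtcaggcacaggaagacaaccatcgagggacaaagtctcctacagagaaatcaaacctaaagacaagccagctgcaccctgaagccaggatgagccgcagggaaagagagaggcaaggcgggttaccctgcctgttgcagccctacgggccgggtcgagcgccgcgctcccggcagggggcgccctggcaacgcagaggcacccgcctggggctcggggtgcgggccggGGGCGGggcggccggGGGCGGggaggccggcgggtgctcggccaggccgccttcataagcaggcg
Phospho1, chr11:95824250-95824549, plus strand: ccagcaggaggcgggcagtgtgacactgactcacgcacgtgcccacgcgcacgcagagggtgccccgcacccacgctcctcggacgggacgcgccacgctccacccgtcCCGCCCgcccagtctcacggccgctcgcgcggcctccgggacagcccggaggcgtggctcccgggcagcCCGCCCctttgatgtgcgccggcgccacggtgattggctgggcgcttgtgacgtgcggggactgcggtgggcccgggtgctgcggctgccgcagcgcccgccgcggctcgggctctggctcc
Phex, chrX:157415237-157415536, minus strand: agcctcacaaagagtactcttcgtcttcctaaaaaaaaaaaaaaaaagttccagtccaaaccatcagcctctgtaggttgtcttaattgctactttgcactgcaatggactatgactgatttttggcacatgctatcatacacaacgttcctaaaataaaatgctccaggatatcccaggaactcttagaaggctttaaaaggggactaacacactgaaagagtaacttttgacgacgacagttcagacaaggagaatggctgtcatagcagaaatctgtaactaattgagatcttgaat
Counted without overlap, the upstream *Alpl* window and the *Phospho1* window each held 2 GC boxes, and the *Phex* window held 0. In the *Alpl* and *Phospho1* windows a further match overlaps the first marked box and is left in lower case. Of 32851 mouse promoter windows of this length, 35.7% held at least 1. The share of G and C was 70% for *Alpl*, 77% for *Phospho1* and 38.7% for *Phex*. The RUNX motif TGTGGT, searched on both strands, was in none of these 3 windows and in 16.8% of all windows. Neither motif was thus in all 3 windows. A match of letters is a description and no evidence of binding.

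The Control section held 9002147 UMIs in 1962 spots and the Loaded section 4910716 UMIs in 1436 spots. The bone regions, which the study drew as all bone spots between the 2 inner fixator pins, held 131 spots with 557259 UMIs in Control and 146 spots with 409020 UMIs in Loaded, with medians of 3478 and 2621 UMIs per spot. The 7 osteoblast markers (*Col1a1*, *Col1a2*, *Bglap*, *Ibsp*, *Sp7*, *Runx2* and *Spp1*) took 2.10% of UMIs in Control bone and 6.75% in Loaded bone, and all of them were detected in both. The 3 osteocyte markers *Dmp1*, *Mepe* and *Sost* took 0.00897% and 0.0711%. The 10 granulocyte markers took 0.0944% in Control bone and 0.388% in Loaded bone, and 0.437% and 0.960% in the marrow cavity. The 22 muscle markers took 16.3% of UMIs in Control bone, with spots from 1.21 to 35.6%, and 8.61% in Loaded bone, with spots from 2.70 to 27.2%. The 8 cartilage markers took 0.130% of UMIs in Control bone and 0.0670% in Loaded bone. Of these, *Col10a1* and *Matn3* were at 0 in both bone regions and *Hapln1* was at 0 in Control bone. The part of these differences in the results below was not tested, and some results are also given for restricted spots.

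**Figure D1:**
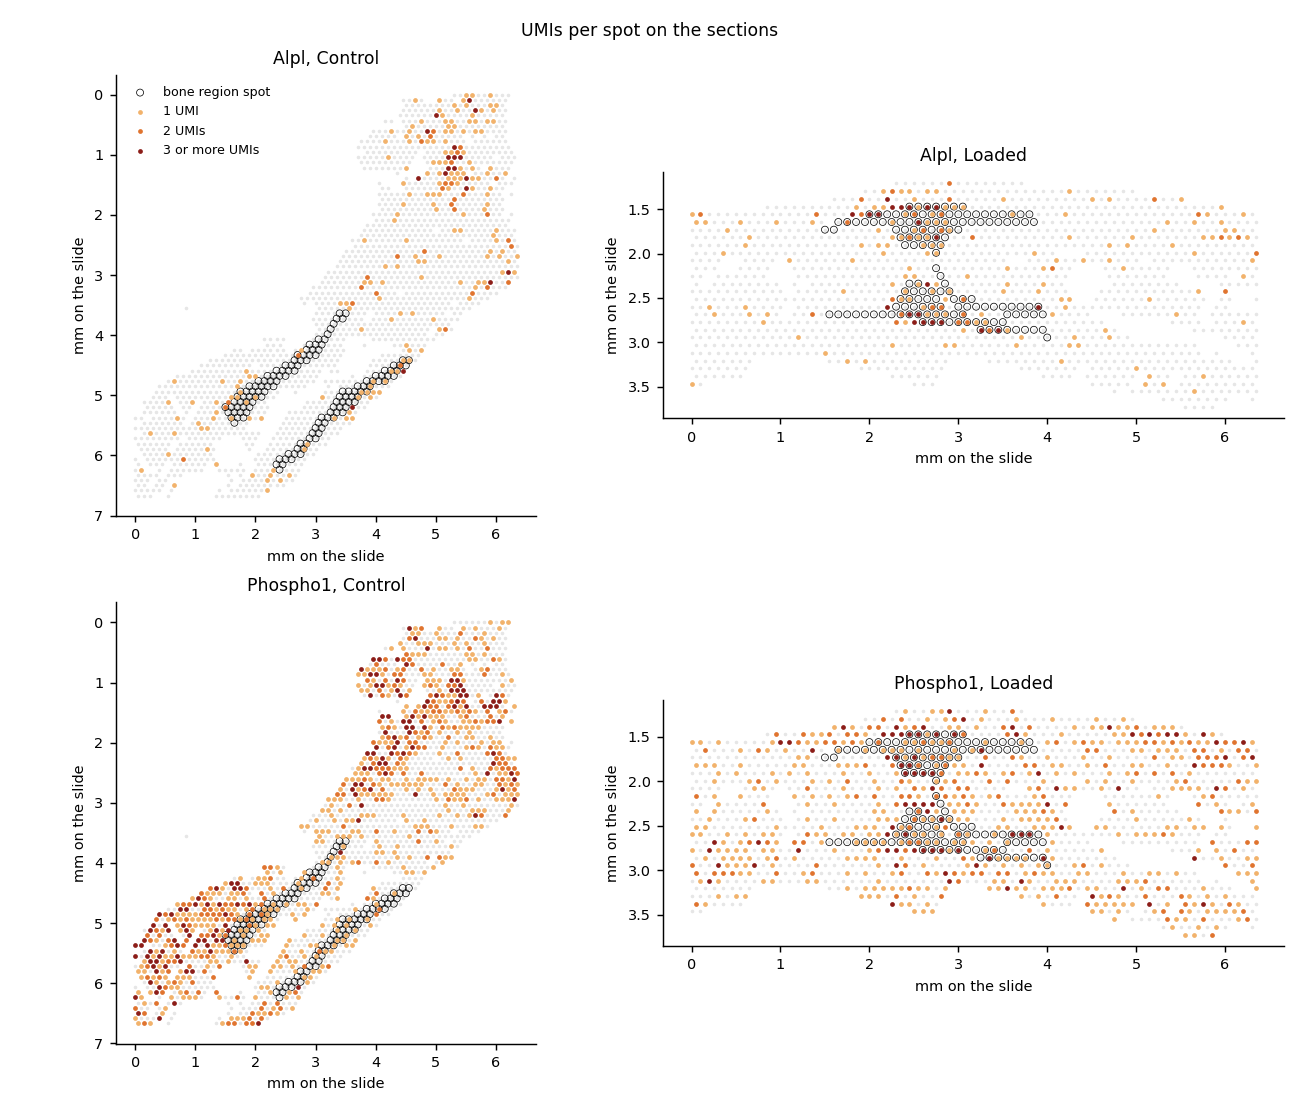
UMIs of *Alpl* (top) and *Phospho1* (bottom) in every kept spot of the Control (left) and Loaded (right) sections, axes in mm on the slide. Black rings mark the bone region and color gives 1, 2, or 3 or more UMIs. *Alpl* had UMIs in 62 of the 146 Loaded spots and 21 of the 131 Control spots of the bone regions, and a second group of *Alpl* spots lay far from the bone region of the Control section.

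The 2 vesicle enzymes were both higher in Loaded bone. *Phospho1* had 54 UMIs in the Control bone region, a level of 0.969 (0.728 to 1.26), and 198 UMIs in the Loaded region, a level of 4.84 (4.19 to 5.56). The bone regions were divided into 4 blocks, by side of the marrow cavity and by end, to show the spread within a section. The 4 Control blocks lay between 0.492 and 1.48 and the 4 Loaded blocks between 2.73 and 6.87, without overlap. On the scale of UMIs per scran size factor, the log2 fold of Loaded over Control was 2.20 (1.76 to 2.66), or 4.60-fold. *Smpd3* had 0 UMIs in the 131 Control bone spots and 21 UMIs in the Loaded region, a level of 0.513 (0.318 to 0.785). Its 4 Loaded blocks lay between 0.183 and 0.906 and had 12, 2, 5 and 2 UMIs. Set against a floor of 3 UMIs over the Control region, which is a level of 0.0538, *Smpd3* was 8.78-fold higher in Loaded bone. This was a log2 fold of 3.13, with a lower interval limit of 2.71.

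Of the pyrophosphate enzymes, *Alpl* differed between the bone regions beyond counting error and *Enpp1* did not. *Alpl*, which removes pyrophosphate, had 24 UMIs in Control bone, a level of 0.431 (0.276 to 0.641), and 116 UMIs in Loaded bone, a level of 2.84 (2.34 to 3.40). Its Control blocks lay between 0.197 and 0.713 and its Loaded blocks between 1.31 and 3.55, so the blocks did not overlap. The log2 fold was 2.60 (1.96 to 3.30), or 6.07-fold. *Enpp1*, which makes pyrophosphate, had 11 UMIs in Control bone and 14 UMIs in Loaded bone, levels of 0.197 (0.0985 to 0.353) and 0.342 (0.187 to 0.574). Its blocks overlapped, between 0 and 0.439 in Control and between 0.0755 and 0.723 in Loaded. The log2 fold of *Enpp1* was 0.68 (-0.57 to 1.96), so no difference was detectable at this depth. The value of *Alpl*, 2.60, lay above this interval, but the interval of *Alpl* began at 1.96, so the intervals met. Whether these folds differ was not tested.

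*Phex* had the largest fold of the 6 members with UMIs in both regions. It had 2 UMIs in Control bone, a level of 0.0359 (0.00435 to 0.130), and 35 UMIs in Loaded bone, a level of 0.856 (0.596 to 1.19). The Control blocks lay between 0 and 0.211 and the Loaded blocks between 0.365 and 1.66. The log2 fold was 4.46 with an interval from 2.50 to 7.56, which is wide because the Control region held so few UMIs.

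The phosphate importers differed less. *Slc20a1* had 21 UMIs in Control bone and 27 in Loaded bone, levels of 0.377 (0.233 to 0.576) and 0.660 (0.435 to 0.960), and its blocks overlapped. Its log2 fold was 0.69 (-0.19 to 1.59), and no difference was detectable. *Slc20a2* had 38 UMIs in Control bone and 54 in Loaded bone, levels of 0.682 (0.483 to 0.936) and 1.32 (0.992 to 1.72). The 4 Loaded blocks, from 1.00 to 2.26, lay above the 4 Control blocks, from 0.211 to 0.886. The log2 fold was 0.83 (0.21 to 1.47), beyond counting error but within 2-fold.

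**Figure D2:**
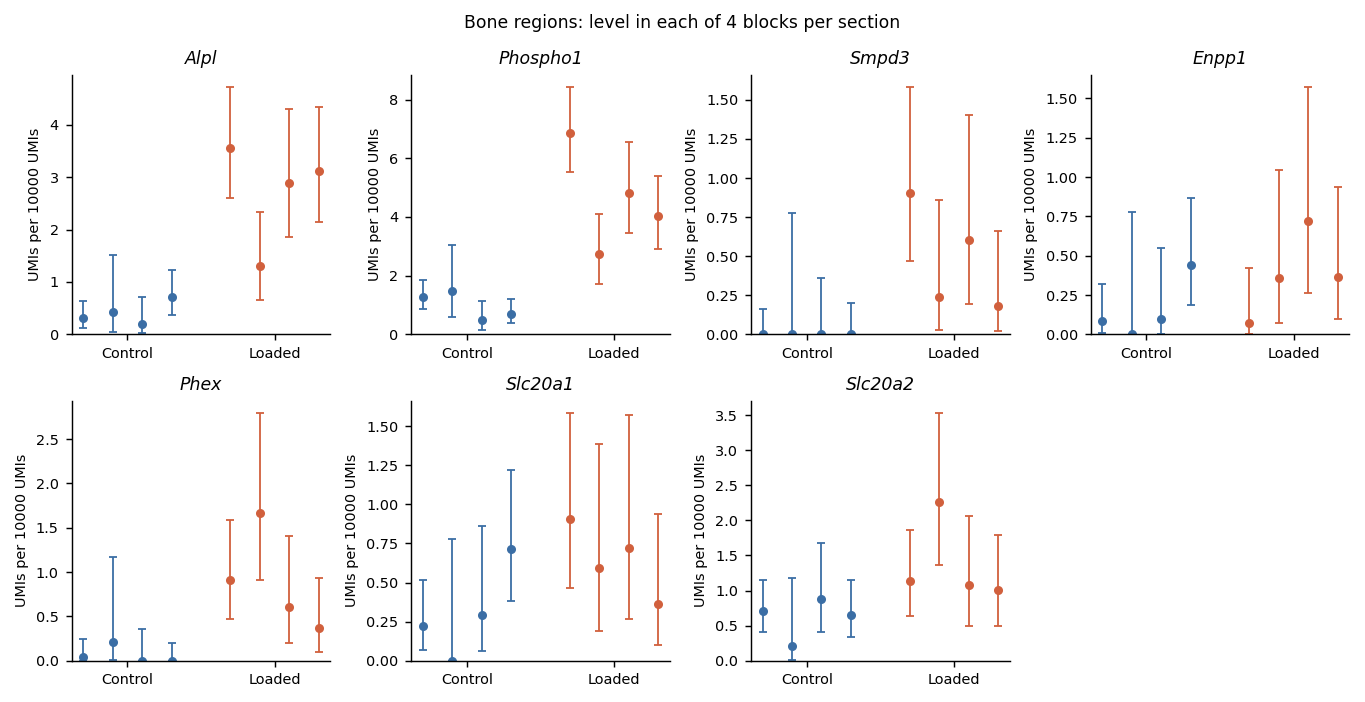
Level of each member, in UMIs per 10000 UMIs, in the 4 blocks of the bone region of each section. Points are blocks and bars are exact Poisson 95% intervals. The Loaded blocks of *Alpl*, *Phospho1*, *Smpd3*, *Phex* and *Slc20a2* lie above all Control blocks, and those of *Enpp1* and *Slc20a1* overlap them.

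Thus 4 of the 7 members were at least 2-fold higher in Loaded bone and 0 were at least 2-fold lower, where of 10003 genes with at least 10 UMIs 10.6% were at least 2-fold higher and 9.81% at least 2-fold lower. Of these 4, *Smpd3* (0 Control and 21 Loaded UMIs) and *Phex* (2 and 35) reached 10 UMIs only through the Loaded region. With so few Control UMIs, the direction of their calls followed from the limit of 10 UMIs. Blocks did not overlap for 5 of the 7 members, all with Loaded above Control, compared with 4.37% of genes above and 1.92% below. For *Smpd3*, at 0 in all Control blocks, any UMI in each Loaded block sets the blocks apart. Blocks of 1 section are not independent samples. The median log2 fold was 2.20 over the members and 0.02 over all genes. Because the members were chosen with earlier results of these data known, the values over all genes are a description and no test of the set. When only bone spots with a muscle share below 5% were kept (16 Control and 25 Loaded spots), the log2 fold was 1.47 for *Alpl*, 3.76 for *Phospho1* and 3.95 for *Slc20a2*, the last against 1 Control UMI. *Phex* and *Smpd3*, with 0 Control UMIs there, had bounds of 1.29 and 1.12. *Enpp1* then had a log2 fold of -1.62 (5 Control and 2 Loaded UMIs), and *Slc20a1* of -0.29.

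**Figure D3:**
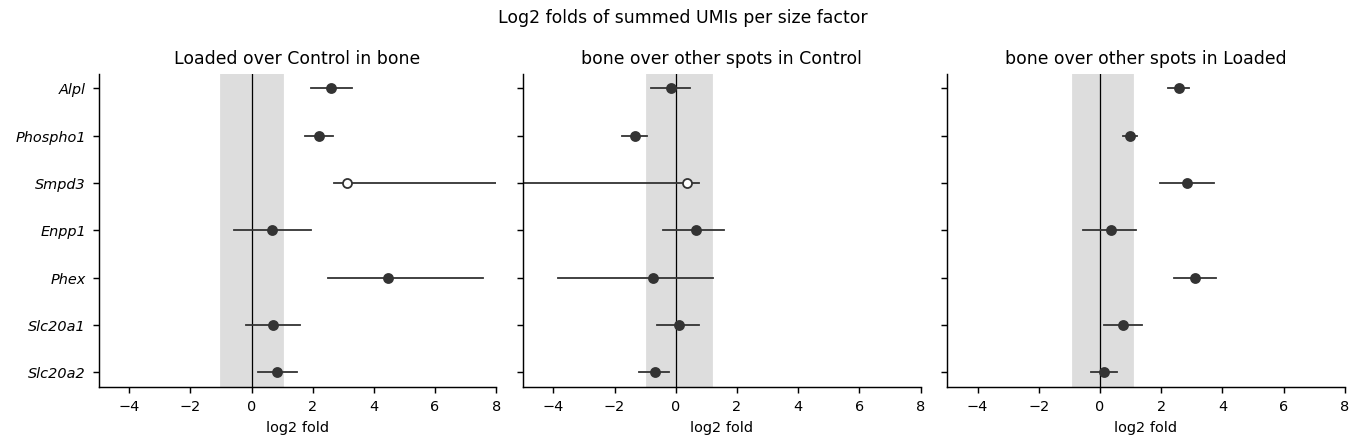
Log2 folds of summed UMIs per size factor for the 7 members in 3 comparisons, named above each panel. Points are values, lines are 95% counting intervals, open points are bounds against 3 UMIs where a region held 0, lines running off an axis have no limit on that side, and the gray band spans the 10th to 90th percentile of all genes with at least 10 UMIs. *Alpl*, *Phospho1*, *Smpd3* and *Phex* lie beyond the band in the first panel, and *Phospho1* lies below 0 in the second and above 0 in the third.

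A list of 26 other genes of the same pathways gave calls in both directions. Of these, 18 had at least 10 UMIs over both bone regions, 4 of them at least 2-fold higher in Loaded, 2 at least 2-fold lower and 12 within 2-fold, with a median log2 fold of -0.12. The shares over all genes were the 10.6% and 9.81% given above. The higher ones were *Mepe* (46 Loaded and 3 Control UMIs, log2 fold 4.27), *Dmp1* (171 and 28, 2.94), *Sgms2* (38 and 15, 1.67) and *Chka* (15 and 6, 1.65). *Dmp1* and *Mepe* encode phosphoproteins of the osteocyte matrix, *Sgms2* encodes a sphingomyelin synthase of the plasma membrane, and *Chka* a choline kinase that makes phosphocholine. The lower ones were *Sgms1* (8 and 25, -1.32), the sphingomyelin synthase of the Golgi, and *Nt5e* (4 and 11, -1.13 with an interval from -3.24 to 0.62), which makes adenosine from AMP. By group, 0 of the 5 measured pyrophosphate genes were at least 2-fold higher, against 2 of 5 phosphocholine genes, 0 of 1 phosphate transporters, 2 of 4 genes of the FGF23 axis and 0 of 3 annexins. *Fgf23* itself had 1 UMI in Loaded bone and 0 in Control bone, and *Kl* had 0 in both.

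Within each section, the bone region was then compared with all other kept spots, 1767 in Control and 1285 in Loaded. In the Control section 0 members were at least 2-fold higher in bone and 1 was at least 2-fold lower, where 13.3% of 14683 genes were at least 2-fold higher and 8.71% at least 2-fold lower. With library totals in place of size factors, these counts turned to 1 higher, *Enpp1* (1.15), and 0 lower, since *Phospho1* was -0.84. In the Loaded section 3 members were at least 2-fold higher in bone and 0 lower, where 11.4% of 13849 genes were at least 2-fold higher and 7.76% at least 2-fold lower. The 2 comparisons share no spots.

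*Phex*, *Smpd3* and *Alpl* were concentrated in the Loaded bone region. *Phex* had 35 UMIs in bone and 39 in all other spots, levels of 0.856 and 0.0867, a log2 fold of 3.10 (2.40 to 3.80). *Smpd3* had 21 and 28 UMIs, levels of 0.513 and 0.0622, a log2 fold of 2.84 (1.95 to 3.71). *Alpl* had 116 and 187 UMIs, levels of 2.84 and 0.416, a log2 fold of 2.57 (2.22 to 2.91). In the Control section the same genes had log2 folds of -0.76 (-3.86 to 1.20) for *Phex* and -0.15 (-0.81 to 0.46) for *Alpl*, which turned to 0.36 with library totals. *Smpd3* had 0 UMIs in Control bone and 25 UMIs elsewhere. When set to 3 UMIs in bone, its log2 fold was 0.36, or 1.28-fold, with an upper interval limit of 0.76. This positive value comes from the 3 UMIs set in place of 0 and does not show a higher level of *Smpd3* in Control bone. The comparison in the Control section depended on which other spots were taken: against those with an osteoblast share below 2%, the log2 fold of *Alpl* was 1.03.

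*Phospho1* was lower in bone than elsewhere in the Control section and higher in the Loaded section. Its level was 0.969 in Control bone and 1.73 (1.64 to 1.82) in the other Control spots, a log2 fold of -1.34 (-1.76 to -0.95). In the Loaded section the levels were 4.84 and 2.12 (1.99 to 2.26), a log2 fold of 0.99 (0.76 to 1.21). The importers and *Enpp1* were within 2-fold between bone and all other spots with size factors. *Slc20a2* had log2 folds of -0.68 (-1.20 to -0.21) in Control and 0.14 (-0.29 to 0.55) in Loaded, and the former was -0.18 with library totals in place of size factors. *Slc20a1* had 0.10 (-0.62 to 0.75) and 0.77 (0.12 to 1.36), and *Enpp1* had 0.65 (-0.42 to 1.57) and 0.35 (-0.57 to 1.16).

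Of the other genes of the pathways, 20 were measured in Control, with 1 at least 2-fold higher in bone, *Anxa5* (log2 fold 1.09), and 1 lower, *Sgms1* (-1.15), against 13.3% and 8.71% of all genes. *Anxa5* encodes a calcium-dependent phospholipid-binding protein. In Loaded, 5 of 20 were at least 2-fold higher in bone, against 11.4% of all genes: *Mepe* (3.69), *Dmp1* (3.32), *Sgms2* (2.62), *Enpp6* (1.88, from 5 and 13 UMIs) and *Chka* (1.67). *Enpp6* encodes a choline phosphodiesterase that can release phosphocholine. *Sgms1* was again lower in bone (-1.76).

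The levels of *Alpl* and *Phospho1* were lower with distance from the Loaded bone region. Rings of the hexagonal spot grid were counted from the nearest bone spot, 100 μm per ring. *Alpl* had a level of 2.84 in Loaded bone, 1.18 (0.897 to 1.53) in ring 1, 0.457 (0.293 to 0.680) in ring 2, 0.316 in rings 3 to 5 and 0.295 in rings 6 or more. Ring 1 was 4.00-fold above rings 6 or more. *Phospho1* had 4.84, 3.65 (3.13 to 4.22), 1.96, 2.03 and 1.88 in the same order. *Phex* and *Smpd3* were lower already in ring 1. There *Phex* was 0.163 (0.0704 to 0.321) against 0.856 in bone and *Smpd3* was 0.0815 (0.0222 to 0.209) against 0.513. Both were in ring 1 within counting error of their levels in rings 6 or more. The log2 folds of ring 1 over rings 6 or more were 0.85 (-0.52 to 2.08) for *Phex* and 0.31 (-1.73 to 1.95) for *Smpd3*.

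In the Control section *Alpl* was lower with distance at a lower level, with 0.431 (0.276 to 0.641) in bone, 0.357 in ring 1, 0.269 in ring 2 and 0.107 (0.0587 to 0.180) in rings 3 to 5. It was 0.389 (0.341 to 0.442) in rings 6 or more, which hold most of the osteoblast-rich spots described further on. *Enpp1* had its highest Control level in ring 1, with 21 UMIs and a level of 0.395 (0.245 to 0.604). This interval overlapped that of the Control bone region given above. In rings 6 or more *Enpp1* was at 0.0642 (0.0457 to 0.0878), a log2 fold of ring 1 over these of 2.62 (1.78 to 3.42). In the Loaded section *Enpp1* in ring 1 had nearly the same level, 0.387 (0.233 to 0.605), with 0.205 (0.152 to 0.270) in rings 6 or more and a log2 fold of 0.92 (0.07 to 1.70). *Slc20a2* in Loaded ran the other way, 0.815 in ring 1 and 1.24 (1.11 to 1.39) in rings 6 or more, where the muscle list took 9.86% and 22.0% of UMIs.

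**Figure D4:**
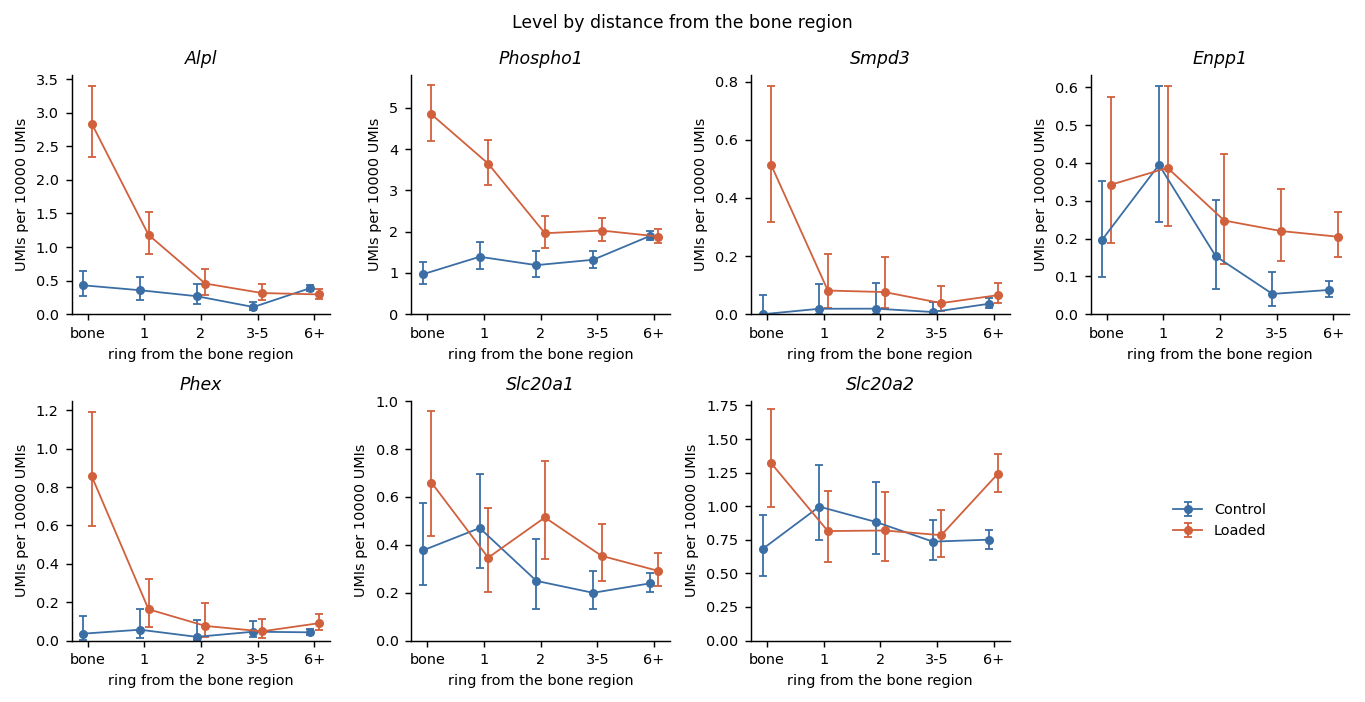
Level of each member, in UMIs per 10000 UMIs, in the bone region and in rings 1, 2, 3 to 5, and 6 or more around it. Points are levels, bars are exact Poisson 95% intervals and colors are the sections. *Alpl* and *Phospho1* decline over rings 1 and 2 of the Loaded section, and *Phex* and *Smpd3* are low from ring 1 on. In Control *Alpl* is lower from bone to rings 3 to 5, and *Enpp1* is highest in ring 1, where its interval overlaps that in bone.

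By position, the marrow cavity between the 2 bone sides held *Phospho1* at 2.09 (1.66 to 2.60) in Control and 3.44 (2.99 to 3.94) in Loaded. *Alpl* in the cavity was 0.104 (0.0284 to 0.267) in Control, from 4 UMIs, and 0.753 (0.552 to 1.01) in Loaded, from 46. In cavity spots with an erythroid share of at least 10%, *Alpl* was 0.110 (0.0227 to 0.322) in Control and 0.375 (0.200 to 0.641) in Loaded, so its intervals overlapped there. *Phospho1* in the same spots was 2.02 (1.52 to 2.63) and 2.57 (2.06 to 3.16). On the flanks outside the bone, *Phospho1* was 1.03 (0.891 to 1.18) in Control and 1.87 (1.63 to 2.13) in Loaded, and beyond the ends of the bone region it was 1.93 in both.

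*Phospho1* and *Slc20a2* were also found in muscle. In the Control section, spots outside bone with a muscle share of at least 10% had *Phospho1* at 1.496 (1.41 to 1.59) and *Slc20a2* at 0.774. Over all spots outside bone these were 1.73 and 0.773, and *Alpl* was 0.184 (0.154 to 0.219) against 0.336. The muscle-rich spots held 6954156 of the 8426953 UMIs of all spots outside bone, so the 2 sets are mostly the same. Between these muscle-rich spots (1036 in Control and 708 in Loaded), a comparison chosen after the values were seen, the log2 fold of Loaded over Control was 0.05 (-0.38 to 0.47) for *Alpl*, -0.14 (-0.30 to 0.01) for *Phospho1* and -0.02 for *Slc20a1*. It was 1.71 (1.00 to 2.46) for *Enpp1*, from 26 Control and 49 Loaded UMIs, and 1.06 (-0.01 to 2.16) for *Smpd3*, from 15 and 18. These 2 were the members at least 2-fold higher, against 6.44% of 12790 genes, with 5.94% of genes at least 2-fold lower. *Phex* had 22 UMIs in each, a log2 fold of 0.80 (-0.12 to 1.72). These folds use size factors and depended on the scaling. By level *Phospho1* was higher in Loaded, with 541 of 2972498 UMIs against 1040 of 6954156 in Control. All members together took 0.0274% of UMIs in the Control spots and 0.0380% in the Loaded spots.

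Because deeper spots show more genes, shares of spots with a UMI were compared after thinning each spot to 1000 UMIs in 1 random draw, which left out 0 Control and 15 Loaded bone spots. *Alpl* was then in 3.82% (1.25 to 8.68%) of the Control spots and 20.6% (14.04 to 28.6%) of the Loaded spots, and unthinned in 16.03% and 42.5%. At 500 UMIs per spot the intervals of *Alpl* overlapped, with 3.82% (1.25 to 8.68%) in Control and 11.6% (6.93 to 17.99%) in Loaded. Muscle-rich spots, with median depths of 4720 and 3421 UMIs, had *Alpl* in 4.02% and 2.55% of thinned spots. The interval of the Control bone share, from 5 thinned spots, held the Control share of muscle. By level, which uses all UMIs, *Alpl* was higher in Control bone than in Control muscle-rich spots, with the intervals given above apart. *Phospho1* was in 10.7% (5.97 to 17.3%) of the Control spots and 37.4% (29.1 to 46.3%) of the Loaded spots, against 14.9% and 19.2% of muscle-rich spots, so the Control bone share was not above that of muscle. *Phex* was in 0.763% and 8.40% (4.27 to 14.5%) of bone spots, against 0.344% and 0.450% of muscle-rich spots. *Smpd3* was in 0 of 131 Control bone spots, which allows a share of up to 2.29% by a floor of 3 spots and 2.78% by the exact interval, and in 3.05% (0.838 to 7.63%) of the Loaded spots, and a difference was not detectable at this depth. *Enpp1*, *Slc20a1* and *Slc20a2* were in 3.05 to 3.82% of the Control spots and 3.05 to 10.7% of the Loaded spots, with overlapping intervals.

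The UMIs were spread over many spots. In Loaded bone the highest spot held 11 UMIs of *Phospho1* and 7 of *Alpl*, and the 5 highest spots held 21.7% and 21.6% of the UMIs. In Control bone no spot held more than 2 UMIs of either. No member had a UMI in 47 Control and 24 Loaded bone spots. At least 3 members were found in 10 Control and 43 Loaded bone spots, and 1 Loaded spot held all 7.

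In Loaded bone *Alpl* and *Phospho1* were found together in 46 spots, *Alpl* alone in 16, *Phospho1* alone in 44 and neither in 40. Thus 74.2% of spots with *Alpl* held *Phospho1*, against 52.4% of spots without it. The level of *Phospho1*, which unlike detection does not grow with depth, was 5.20 (4.31 to 6.22) in spots with *Alpl* and 4.39 (3.47 to 5.47) in spots without, and these did not differ beyond counting error. In Control bone the pair shared 9 spots, with 12 and 36 spots for either alone and 74 for neither, and the level of *Phospho1* was 0.728 with *Alpl* and 1.05 without. *Smpd3* was found with *Alpl* in 12 of its 16 Loaded spots, at 0.743 (0.433 to 1.19) with *Alpl* and 0.222 (0.0605 to 0.569) without, and these intervals overlapped. *Enpp1* was found with *Alpl* in 11 of its 14 Loaded spots. Its level was 0.481 (0.240 to 0.860) with *Alpl* and 0.167 (0.0343 to 0.487) without, again with overlapping intervals. *Smpd3* and *Slc20a1* shared 7 spots, and the level of *Smpd3* was 1.25 (0.625 to 2.24) in the 22 Loaded spots with *Slc20a1* and 0.311 (0.149 to 0.573) in the 124 without. *Enpp1* and *Phex* shared 2 spots, of 14 and 27. In all, 17 of the 21 pairs shared at least 5 Loaded bone spots and 5 pairs did so in Control bone. After thinning to 1000 UMIs these counts were 2 and 0. Such counts grow with the share of spots holding each member, unthinned 42.5% in Loaded and 16.0% in Control bone for *Alpl*. No share over all gene pairs is set beside them, so they do not show more joint expression in Loaded bone.

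Markers of bone cells were then read in spots with and without a member. In Loaded bone, spots with *Alpl* had higher levels of *Col1a1* (278 against 119), *Ibsp* (10.4 against 4.61), *Bglap* (32.2 against 19.0) and *Dmp1* (5.20 against 2.89), with intervals apart for each. The osteoblast markers *Sp7* (1.35 against 0.666) and *Runx2* (2.58 against 2.05) had overlapping intervals. The osteoclast marker *Ctsk* was also higher in spots with *Alpl* (26.9 against 17.8), with intervals apart. The higher levels were thus not limited to osteoblast and osteocyte markers. Spots with *Alpl* also had less of the muscle gene *Acta1* (97.9 against 138) and the erythroid gene *Hbb-bs* (116 against 210), with intervals apart. Levels are shares of UMIs, and the part of these lower shares in the higher ones was not tested. The other osteocyte markers did not follow *Dmp1*, with *Mepe* at 1.09 against 1.17 and *Sost* at 1.31 (0.884 to 1.87) against 2.44 (1.77 to 3.28). In Control bone, spots with *Alpl* also had more *Col1a1* (111 against 62.5) and *Ibsp* (8.30 against 4.07), but less *Bglap* (1.24 against 2.60, intervals 0.721 to 1.98 and 2.13 to 3.13). *Ctsk* was again higher with *Alpl* (28.6 against 15.05), with intervals apart, and *Sp7* and *Runx2* again had overlapping intervals. *Acta1* (225 against 245) and *Hbb-bs* (66.8 against 132) were again lower with *Alpl*, with intervals apart. *Bglap* encodes osteocalcin, a late marker of osteoblasts, and has near-identical neighboring copies that may share its counts. Control spots with *Phospho1* had less *Col1a1* (58.7 against 85.0) and *Ibsp* (2.16 against 7.08) and more of the muscle gene *Acta1* (276 against 216). Their *Bglap* (2.43 against 2.15), *Runx2* (1.08 against 0.925), *Sp7* and *Dmp1* (0.675 against 0.388) had overlapping intervals. In Loaded bone, spots with *Phospho1* had more *Col1a1* (241 against 132) and less *Acta1* (109 against 132). *Phex* in Loaded bone had a level of 1.04 (0.718 to 1.46) in the 102 spots with an osteocyte marker and 0.216 (0.0262 to 0.781) in the 44 without, from 33 and 2 UMIs. These intervals overlapped slightly. Read the other way, Loaded spots with and without *Phex* had overlapping intervals of *Dmp1* (5.23 against 3.83), *Mepe* (1.28 against 1.07) and *Sost* (2.57 against 1.56). *Enpp1* was in 14 Loaded bone spots, and *Sost*, a secreted product of mature osteocytes, had 0 UMIs in these and 74 in the other 132.

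Spots were also set side by side at a like share of the osteoblast list, a comparison chosen after the values were seen. A share below 1% was found in 42 of the 131 Control bone spots, with 229927 of 557259 UMIs. In Loaded bone it was found in 2 of the 146 spots, with 4562 UMIs, so no fold is given there. The muscle list took 28.1% of UMIs in these Control spots. The folds over whole bone regions given above include them. In bone spots where the list took at least 5% of UMIs, 11 in Control and 77 in Loaded, *Phospho1* was 0.667 (0.182 to 1.71) and 6.05 (5.10 to 7.12), a log2 fold of 3.30 (1.91 to 5.19). *Alpl* was 1.33 (0.576 to 2.63) and 3.99 (3.23 to 4.88), a log2 fold of 1.70 (0.66 to 2.95). *Phex* and *Smpd3* had 0 UMIs in these 11 Control spots and 22 and 18 in the Loaded ones. Against 3 UMIs the log2 fold was 1.00 for *Phex* and 0.71 for *Smpd3*, with lower interval limits of 0.58 and 0.26. At 2 to 5%, with 39 and 49 spots, the log2 fold was 2.31 (1.33 to 3.42) for *Phospho1* and 2.08 (0.71 to 3.69) for *Alpl*. At 1 to 2%, with 39 and 18 spots, it was 1.45 (0.10 to 2.76) for *Phospho1* and 0.25 (-5.47 to 3.88) for *Alpl*, the latter from 3 and 1 UMIs. The muscle list took 3.14% of UMIs in the 11 Control spots and 7.08% in the 77 Loaded spots. Other lists differed in both directions. Osteoclast markers took 1.60% in these Control spots and 0.529% in the Loaded ones, cartilage markers 0.429% and 0.0748%, and tendon markers 0.469% and 0.126%. Granulocyte markers took 0.0400% and 0.274%, and osteocyte markers 0.00334% and 0.0739%. The part of these differences in the folds was not tested. The make-up of the osteoblast list differed as well. In the 11 Control spots *Col1a1* was at 272 and *Ibsp* at 31.7 while *Bglap* had 1 UMI, a level of 0.167, and in the 77 Loaded spots *Col1a1* was at 296, *Ibsp* at 11.2 and *Bglap* at 35.8.

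Outside the bone region, the Control section held 152 spots in which the osteoblast list took at least 5% of UMIs, 127 of them 10 or more rings away. In these 127 spots *Alpl* was 4.59 (3.63 to 5.72), *Phospho1* 11.3 (9.73 to 13.0), *Smpd3* 0.581 (0.278 to 1.07) and *Phex* 0.406 (0.163 to 0.837), all above their levels in Control bone. *Bglap* was 27.2, *Dmp1* 8.07 and *Col1a1* 127 there, and the cartilage list took 1.10% of UMIs. The 25 such spots in rings 1 to 9 had *Alpl* at 0.834 (0.306 to 1.82), *Phospho1* at 2.23 (1.27 to 3.61) and 0 UMIs of *Smpd3* and *Phex*, with *Bglap* at 2.78 and *Col1a1* at 251. The Loaded section held 36 such spots outside its bone region, 31 of them in rings 1 to 9, where *Alpl* was 3.97 (2.95 to 5.22), *Phospho1* 8.64 (7.10 to 10.4) and *Bglap* 37.5.

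**Figure D5:**
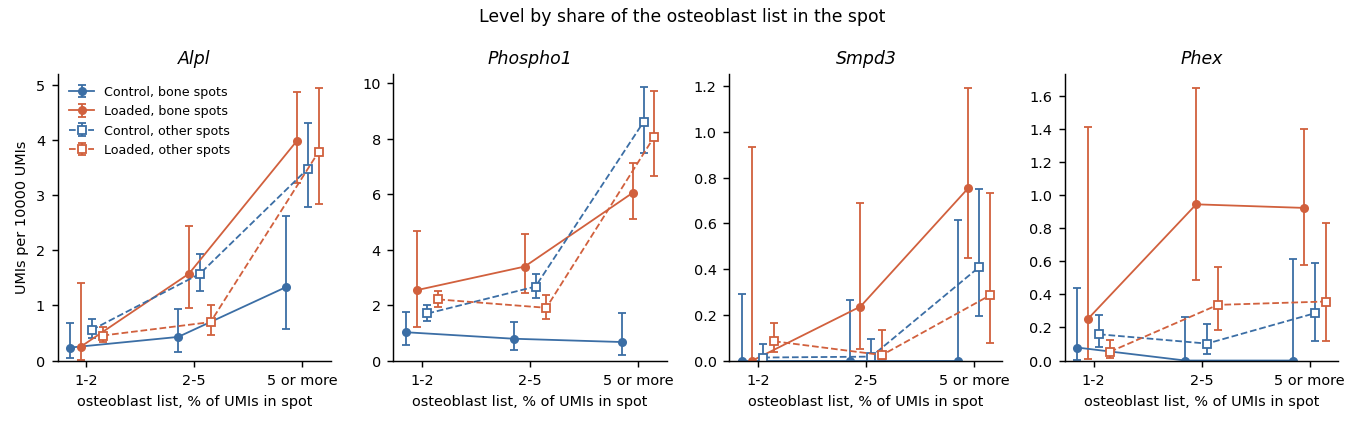
Levels of *Alpl*, *Phospho1*, *Smpd3* and *Phex*, in UMIs per 10000 UMIs, in spots grouped by the share of their UMIs from the 7 osteoblast markers. Filled circles with solid lines are bone spots and open squares with dashed lines are other spots, bars are exact Poisson 95% intervals, and colors are the sections. At a share of at least 5%, *Phospho1* was 0.667 in Control bone spots and between 6.05 and 8.60 in the other 3 groups.

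Over all kept spots with such a share, 163 Control and 113 Loaded, the log2 fold of Loaded over Control was -0.04 (-0.30 to 0.23) for *Phospho1* and 0.37 (-0.01 to 0.76) for *Alpl*, against 1.65 (0.41 to 3.09) for *Phex*, from 7 Control and 27 Loaded UMIs, and 0.92 (0.16 to 1.73) for *Slc20a2*. At a share of 1 to 2% *Phex* stood on the other side, at -1.30 (-2.99 to 0.19), from 13 Control and 6 Loaded UMIs. At 2 to 5% *Alpl* was lower in Loaded, at -0.57 (-1.10 to -0.06). *Phospho1* was there at -0.03 (-0.37 to 0.32) and *Phex* at 2.54 (1.23 to 4.11). When the 77 Loaded bone spots were set against the 152 Control spots outside bone, *Alpl* had a log2 fold of 0.22 (-0.22 to 0.66), *Smpd3* of 0.91 (-0.29 to 2.18) and *Phospho1* of -0.49 (-0.80 to -0.17). *Phex*, at 1.71 (0.43 to 3.18), was the 1 member at least 2-fold higher, against 11.8% of 7890 genes, with 9.28% of genes at least 2-fold lower. The Control section thus held, outside its bone region, spots with *Alpl* at 3.48 (2.78 to 4.30) and *Phospho1* at 8.60 (7.48 to 9.85).

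Across 14 regions (4 bone blocks, cavity, flanks and ends of each section), the genes most like each member were ranked by Pearson's r of the log2 level among 10023 genes with at least 100 UMIs. The regions share their section, depth and tissue mix, so r is a description. A value of 0.01 was added to each level before the log2, so a region at 0 UMIs can weigh heavily on r. The lowest Control bone block of *Enpp1*, *Phex* and *Slc20a1* was at 0. *Alpl* was most like *Gja1* (r = 0.94), which encodes connexin 43, *Bglap* (0.94), *Wnt5b* (0.90), *Eid3* (0.90) and *Dmp1* (0.89). *Phospho1* was most like *Chil1*, *Pak1*, *Car12*, *Ighg3* and *Spata13* (0.87 to 0.89), and *Phex* like *Irx5* (0.92), *Col11a2*, *Ambra1*, *Spata13* and *Tnfrsf19* (0.87 to 0.90). *Enpp1* was most like *Vti1a*, *Mthfd1l*, *Hpf1*, *Wdfy1* and *Atp2b1* (0.91 to 0.93). *Slc20a1* was most like *Vps11*, *Mcfd2*, *Atrnl1*, *Grb10* and *Inf2* (all 0.98), and *Slc20a2* was like *Dhcr7*, *Ccdc85a*, *Tcf7l2* and *Disc1* (0.89 to 0.91). Among members, r was 0.87 for *Phospho1* with *Phex*, 0.73 for *Alpl* with *Phospho1*, 0.69 for *Alpl* with *Phex*, 0.82 for *Enpp1* with *Slc20a1* and 0.77 for the 2 importers. *Enpp1* with *Phex* gave 0.10, and *Slc20a1* with *Phex* gave 0.08. *Smpd3*, with 74 UMIs in all, was below the limit for this ranking.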

How the data were processed

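Formalin-fixed paraffin-embedded (FFPE) femur sections, 1 Control and 1 Loaded, were measured with the Visium assay. The deposited values are raw UMI counts per gene and spot, made by the authors with SpaceRanger (2.0.0 per the file headers) on mm10. Positions on the spot grid accompanied them. R 4.3.1 and Seurat are also named in the submitters' processing notes. Spots below 500 UMIs or 250 genes were dropped, 64 in Control and 5 in Loaded, none in bone. The bone spots were those of the study's list of barcodes, and the 2 bone regions share no barcodes.

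UMIs were summed over spots and divided by summed scran size factors (R 4.3.3, scran 1.30.0), computed over the bone spots of both sections, over each section for bone against other spots, or over both sections where other spots were compared between them. Intervals are exact Poisson, exact binomial (Clopper-Pearson) or exact conditional binomial 95% intervals (Python 3.11.15, numpy 2.4.6, scipy 1.17.1, pandas 2.3.3, matplotlib 3.10.9), which cover counting error only. A sum of 0 was set to 3 UMIs over the region. A fold obtained so is called a bound against 3 UMIs and is not the limit of its interval. Calls needed 10 UMIs and a 2-fold difference. The study's test on spots was not repeated, since spots of 1 section are not replicates, and no p-value is given. Scaling was varied with TMM factors (edgeR 4.0.16), library totals with and without the 20 genes of most UMIs, and scran over all kept spots. Other alternatives were an equal weight per spot, restricted spots, no spot filter, other limits on UMIs, other thinning and each block left out.

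The members and gene lists were chosen with earlier results of these data known. Named genes are the 7 members, those of the 26 pathway genes past 2-fold, the 5 genes most like each member, and the cell type markers. One gene of this ranking is not reported here. *Fgf23*, *Kl* and single markers were named after their values were seen. Blocks were first planned along the axes of the spot grid. The Control section lies at an angle on the grid, so the direction that best separates the 2 bone sides was used instead, chosen after the positions were seen. The intervals and the thinning were tested on simulated counts with known folds. Of the gene identifiers, 19451 of 19465 were in GENCODE M21, which gave the coordinates. Section images were not used here.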

Additional observations from a re-analysis of the deposited data

Results flagged for a closer look

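*Phospho1* was singled out because its difference between bone and the other spots of the same section went in opposite directions in the 2 sections. The log2 fold was -1.34 in Control and 0.99 in Loaded, and both counting intervals left out 0. With 1 section per group the difference between these 2 folds was not tested.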

How the results depend on the processing

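Of 324 alternative values of the comparisons, 269 stayed within the interval of the main value or within 1.5 times the main count, 52 moved out of it and 3 turned a value whose interval left out 0 to the other sign. In all, 21 log2 folds had another sign than the main value, these 3 included, the rest where the main interval held 0. All values here are log2 folds unless said otherwise. Every other scaling of Loaded over Control in bone kept the 7 members within their intervals. Depth limits *Phex*, with 2 Control UMIs, and *Smpd3*, with 0, and with 1 section per group no alternative bears on the spread between mice.

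Keeping bone spots with a muscle share below 5% gave 1.47 for *Alpl*, 3.76 for *Phospho1*, 1.12 for *Smpd3*, -1.62 for *Enpp1*, 1.29 for *Phex*, -0.29 for *Slc20a1* and 3.95 for *Slc20a2*, with *Smpd3* and *Phex* set against 3 UMIs. Keeping bone spots with an osteoblast share of 2 to 5% gave 2.35 for *Phex*, a bound, and -0.24 for *Slc20a1*. A share of at least 5% gave 1.70 for *Alpl*, 3.30 for *Phospho1*, bounds of 0.71 for *Smpd3* and 1.00 for *Phex*, -1.20 for *Enpp1* and 2.25 for *Slc20a2*. Over all kept spots with a share of 2 to 5%, the value was -0.57 for *Alpl*, -0.0254 for *Phospho1* and 2.43 (-0.91 to 8.05, from 4 and 1 UMIs) for *Smpd3*. At 5% or more it was 0.37 for *Alpl*, -0.0372 for *Phospho1*, 0.84 for *Smpd3*, 1.65 for *Phex* and -0.30 for *Slc20a1*. These osteoblast shares were chosen after the data were seen, and the cause of the changes was not tested.

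With library totals, bone over other spots in Control became -0.84 for *Phospho1*, -0.18 for *Slc20a2* and 0.86 for *Smpd3*, the last set to 3 UMIs. Against muscle-rich spots it was 0.56 for *Alpl* and 1.73 for *Enpp1*. Against spots with an osteoblast share below 2%, a limit added later, it was 1.03 for *Alpl* and 0.95 for *Smpd3*, again set to 3 UMIs. The positive values of *Smpd3* come from the 3 UMIs set in place of 0. In Loaded, *Alpl* became 2.97 against spots at least 3 rings away, 3.17 against muscle-rich spots and 3.17 against spots with an osteoblast share below 2%, where *Phex* became 3.83.

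With at least 1 UMI, 3071 genes were 2-fold higher and 2395 lower in Loaded bone. With at least 50 UMIs the counts were 245 and 320, and 2 members remained. After thinning to 1000 UMIs, 0 Control and 2 Loaded member pairs shared at least 5 spots, and with a muscle share below 10% the Control count was 1. In the Control section 2 members had ring 1 above rings 6 or more, and 1 with scran factors. Shares of spots depended on thinning, with 3 members apart at 1000 UMIs, 2 at 500 (without *Alpl*) and 4 without thinning. No share over all genes is set beside the member counts in this paragraph, so they describe the settings only.

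Leaving out 1 block at a time gave, for Loaded over Control in bone, 1.90 to 2.71 for *Phospho1*, 2.40 to 3.06 for *Alpl*, 2.47 to 3.42 for *Smpd3*, 0.18 to 1.88 for *Enpp1*, 3.79 to 5.33 for *Phex*, 0.43 to 1.41 for *Slc20a1* and 0.55 to 1.02 for *Slc20a2*. *Phex* was 5.33 without the Control block (side 1, end 2) that held its highest Control level and 3.79 without the Control block at side 2, end 2. *Smpd3*, a bound, was 2.47 without the latter block. *Enpp1* was 1.88 and *Slc20a1* 1.41 without it. For bone over other spots in Control, *Phospho1* ran from -1.92 to -1.01, *Enpp1* from -0.50 to 0.89 and *Smpd3*, set to 3 UMIs, from 0.47 to 1.08. For Loaded, *Phospho1* ran from 0.68 to 1.17. With blocks along the grid axes, the signs of the 4 members at least 2-fold higher in Loaded bone stayed as they were. Folds over whole regions do not use blocks, so this says nothing on the overlap of blocks. No paired analysis was possible because each group held 1 section.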
